A study of Homo sapiens with 12 samples.

Results

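LPL, STC1, AGR2, CLU, CYP4F22, P2RY1 and PPP1R1B stood out among the genes that differed after knockdown of GALNT7 in CWR22Rv1 prostate cancer cells. These 7 genes, of 59424 genes in the expression tables, were picked by hand for a large knockdown change, close agreement between replicates and a mean normalised count above 500 over the 6 CWR22Rv1 libraries. A normalised count is the number of reads on a gene divided by a size factor for its library. GALNT7 is a Golgi enzyme that adds N-acetylgalactosamine to glycopeptides in the first steps of mucin-type O-glycosylation. Messenger RNA was sequenced from stable lines made with lentivirus. In CWR22Rv1, a prostate cancer line grown out of a relapsed xenograft, the groups were a control short hairpin RNA (shControl) and GALNT7 knockdown. In DU145, a line from a brain metastasis of prostate cancer, they were a control open reading frame construct (OE control) and GALNT7 overexpression. Each of the 4 groups had 3 libraries labelled as biological replicates, 12 in all. Whether each stable line was 1 clone or a pool is not given in the sources used here, so a difference between 2 groups cannot be told apart from a difference between the 2 transduced lines.

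The 7 genes have different roles. LPL encodes lipoprotein lipase, a secreted enzyme that releases fatty acids from the triglycerides of lipoproteins. STC1 encodes stanniocalcin 1, a secreted glycoprotein hormone first described for its part in calcium and phosphate balance. CLU encodes clusterin, a secreted chaperone carried on lipoproteins and long known from the regressing rat prostate. AGR2 encodes a protein disulphide isomerase of the endoplasmic reticulum that mucin-producing cells need and that many adenocarcinomas secrete. CYP4F22 encodes a fatty acid hydroxylase that makes the acylceramides of the skin barrier. P2RY1 encodes a receptor for extracellular ADP that signals through Gq and phospholipase C. PPP1R1B encodes DARPP-32, an inhibitor of protein phosphatase 1 that protein kinase A switches on, best known in neurons that receive dopamine.

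GALNT7 itself moved as labelled in both lines. The shControl libraries held 999 ± 122 normalised counts of GALNT7 (SD, n = 3) and the knockdown libraries 461 ± 53.7, a log2 change of -1.11 (SE 0.129, adjusted p = 0.0051). In DU145 it was 964 ± 75.8 in OE control and 2181 ± 176 with overexpression, a log2 change of 1.18 (SE 0.0863, adjusted p = 8.0e-05). Libraries held 18364512 to 22264533 reads in CWR22Rv1 and 21628718 to 24356910 in DU145. The changes and adjusted p-values are from limma on log2(normalised count + 1), fitted across all genes of 1 cell line with a mean of at least 5, and a gene past the threshold has an adjusted p under 0.05. Of the epithelial genes EPCAM, KRT8, KRT18 and CDH1, all 4 were present in both lines. The luminal prostate marker HOXB13 was present in CWR22Rv1, at 5972 ± 107 in shControl and 5648 ± 255 in knockdown. In DU145 it stood at 4.70 ± 5.85 in OE control, where KLK3 was at 0. The immune marker PTPRC was at 0.895 ± 0.884 in shControl and at 0.336 ± 0.582 in OE control.

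All 7 genes passed the filter of 17906 tested in CWR22Rv1, and in all 7 the knockdown libraries did not overlap the shControl libraries. Since the genes were chosen on this contrast, their knockdown values are a description, and no p-value is given for them. Across all tested genes 9.06% were past the threshold, 5.28% higher and 3.79% lower, and 32.5% had groups that did not overlap, 16.9% higher and 15.6% lower. The set holds 6 genes that were higher and 1 that was lower in knockdown.

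**Figure D1:**
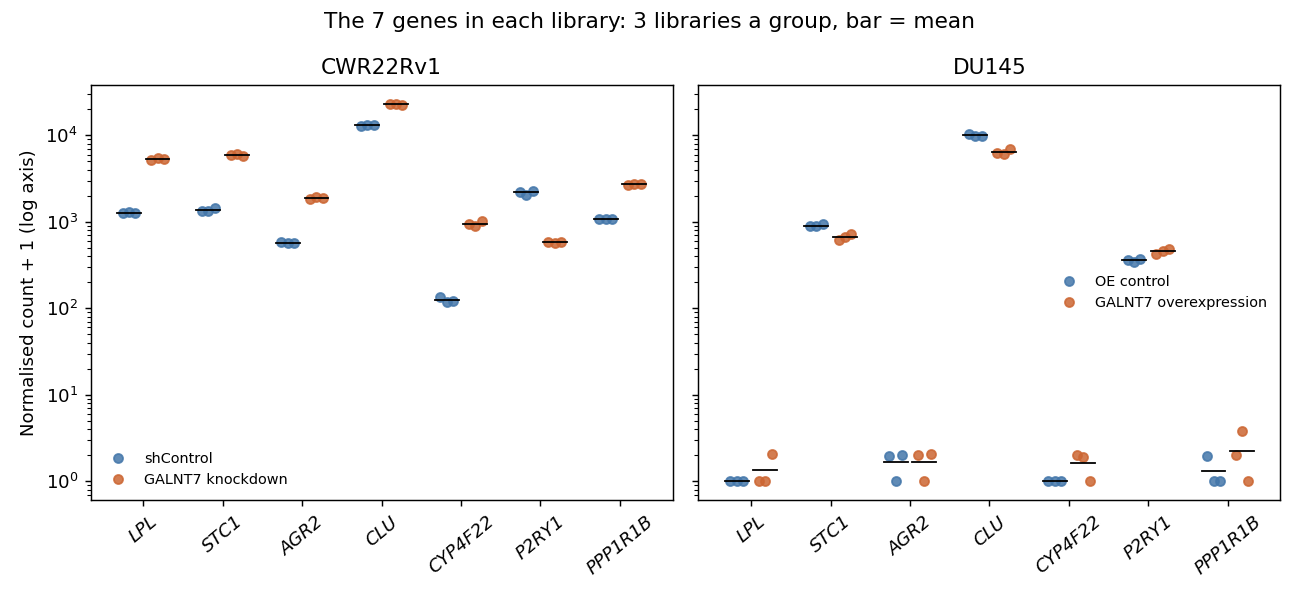
Normalised count plus 1 on a log axis for the 7 genes in each of the 12 libraries, with CWR22Rv1 on the left and DU145 on the right; points are libraries and bars are means of 3. In CWR22Rv1 every gene has 2 tight and separate groups, and in DU145 only STC1, CLU and P2RY1 lie above a few counts.

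CLU was the most abundant of the secreted products. It read 12847, 13161 and 13170 in the shControl libraries and 23163, 22778 and 22710 after knockdown, so the lowest knockdown library stood far above the highest control library. The means were 13059 ± 184 and 22884 ± 244, a log2 change of 0.81 (SE 0.0283), or 1.75-fold. LPL read 1252, 1301 and 1280 against 5169, 5401 and 5330. Each LPL group spanned a narrow band, with means of 1278 ± 25.0 and 5300 ± 119 and a log2 change of 2.05 (SE 0.0477), or 4.15-fold. STC1 read 1324, 1332 and 1461 in shControl and 5995, 6120 and 5789 in knockdown. Control replicate 3 was the highest of the control group and still lay far below the knockdown group. The STC1 means were 1372 ± 77.3 and 5968 ± 167, a log2 change of 2.12 (SE 0.0582), or 4.35-fold. On GRCh38 these genes lie on the short arm of chromosome 8, LPL at 19901717 to 19967259 on the plus strand, STC1 at 23841915 to 23854807 and CLU at 27596917 to 27615031, both on the minus strand.

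Among the genes whose products act inside the cell or its membrane, AGR2 read 578, 566 and 569 in shControl and 1851, 1922 and 1870 in knockdown. Its groups were 571 ± 6.10 and 1881 ± 36.7, a log2 change of 1.72 (SE 0.0588), or 3.29-fold. CYP4F22 had the lowest control level and the largest change. It read 133, 116 and 122 in shControl against 953, 882 and 1009 in knockdown, with means of 124 ± 8.98 and 948 ± 63.8 and a log2 change of 2.93 (SE 0.102), or 7.61-fold. Its replicates spread by about 7% of the mean in both groups, more than those of AGR2 or PPP1R1B. PPP1R1B read 1076, 1066 and 1075 against 2677, 2736 and 2754. The control spread of PPP1R1B was the narrowest of the 7, with means of 1072 ± 5.39 and 2722 ± 40.2 and a log2 change of 1.34 (SE 0.0503), or 2.54-fold. P2RY1 was the only member lower in knockdown. It read 2215, 2064 and 2270 in shControl and 581, 572 and 579 in knockdown, with means of 2183 ± 106 and 577 ± 4.87 and a log2 change of -1.92 (SE 0.0642), 3.77-fold lower. On GRCh38, AGR2 spans 16791811 to 16833433 on the minus strand of chromosome 7, CYP4F22 spans 15508493 to 15552317 on the plus strand of chromosome 19, P2RY1 spans 152834693 to 152841439 on the plus strand of chromosome 3, and PPP1R1B spans 39626740 to 39636626 on the plus strand of chromosome 17.

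The stretch before the RefSeq start of a gene is shown for AGR2 and CYP4F22, which moved the same way in knockdown, because their base composition is far apart. Promoter windows from 250 bases before to 50 bases after the start were taken from RefSeq on GRCh38.p14, where 3 of the 7 genes had one: AGR2, CYP4F22 and P2RY1. The part of each window upstream of every exon of the gene that overlaps the window in GENCODE 29 is printed 5′ to 3′ on the strand of the gene, with capitals for the motif GGGCGG on either strand (the GC box). GENCODE 29 also places exons of another AGR2 transcript further upstream, so the AGR2 stretch lies inside the full span of the gene.
AGR2 (chr7:16805081-16805249, minus strand): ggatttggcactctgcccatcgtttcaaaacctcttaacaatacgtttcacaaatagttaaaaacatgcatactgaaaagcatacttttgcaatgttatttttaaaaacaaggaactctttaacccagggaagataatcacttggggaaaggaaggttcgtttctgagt
CYP4F22 (chr19:15508275-15508492, plus strand): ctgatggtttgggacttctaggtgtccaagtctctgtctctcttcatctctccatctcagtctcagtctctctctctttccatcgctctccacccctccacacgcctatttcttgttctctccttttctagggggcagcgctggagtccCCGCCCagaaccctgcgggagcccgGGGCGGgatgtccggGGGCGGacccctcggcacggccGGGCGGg
The full window was 43.7% G and C in AGR2 and 63.7% in CYP4F22, and the median over all 35116 promoter windows was 58.7%. The printed stretches, of 169 and 218 bases, were 36.1% and 62.4% G and C. CYP4F22 held 4 GC boxes, the first base of each lying 101, 76, 61 and 39 bases before the start, and P2RY1 held 1 at 44 bases before its start. At least 1 GC box was found in 45.0% of all windows. The other motifs searched on both strands were TGTTTAC for FOXO factors, TGANTCA for AP-1, CACGTG for E-box proteins, its overlapping core ACGTG for HIF, TGACGTCA for CREB, TATAAA and CCAAT. None of these letters occurred in the 3 full windows, and they occurred in 3.42%, 7.71%, 7.26%, 21.4%, 1.85%, 11.5% and 34.6% of all windows, in the order given. The P2RY1 window, 72.7% G and C, lies wholly inside an exon of GENCODE 29 and is not printed.

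Within CWR22Rv1 the set did not hold all of the largest changes. Among 7409 genes with a mean above 500, CYP4F22 ranked 2 by the size of its change, STC1 5, LPL 6, P2RY1 10, AGR2 15, PPP1R1B 25 and CLU 102. Another 95 genes had a larger change than CLU, 61 of them higher and 34 lower in knockdown. The largest of these were the antisense RNA AL355075.4 with a log2 change of 9.92, the diacylglycerol kinase DGKG with 2.71, the transcription factor FOXO1 with 2.68, the matrix glycoprotein THBS1 with 2.01 and TMEM45B with 1.96. Close agreement between replicates in these libraries was part of the choice, so the spread of the 7 genes is only a description. The SD of log2 values within groups was smaller in only 0.513% of the 7409 genes than in CLU, 0.337% than in PPP1R1B, 1.01% than in AGR2 and 2.79% than in LPL. The spread was wider in P2RY1, STC1 and CYP4F22, where 13.7%, 22.6% and 48.9% of genes had a smaller spread. For AL355075.4, DGKG, FOXO1, THBS1 and TMEM45B the same shares were 92.4%, 99.1%, 89.8%, 50.8% and 94.3%. At the limit of 500, CYP4F22 lay just inside with a mean of 536, and EPS8 lay just outside with a mean of 493, from 746 ± 131 in shControl to 240 ± 53.5 in knockdown. CYP4F22 passed the limit only through knockdown, at 124 in shControl and 948 in knockdown, so its place in the ranking depends on its own change. The same holds for AL355075.4, DGKG, FOXO1 and TMEM45B, with shControl means of 16.1, 176, 240 and 229.

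**Figure D2:**
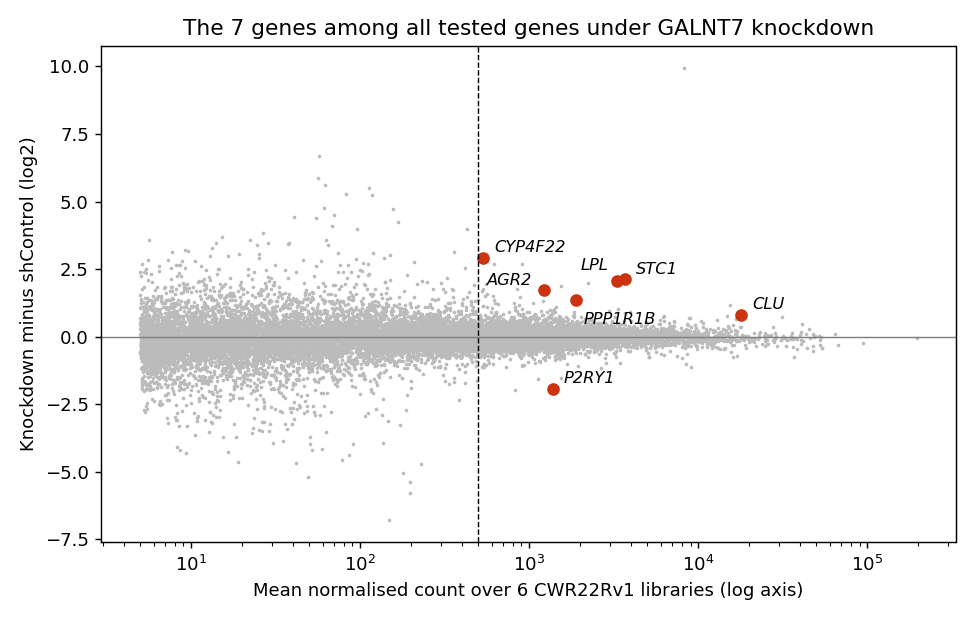
Log2 change in knockdown against mean normalised count (log axis) for the 17906 genes tested in CWR22Rv1, with the 7 genes in red and the limit of 500 as a dashed line. CYP4F22 sits just right of the limit at 2.93, CLU far to the right at 0.81 and P2RY1 below the cloud at -1.92.

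Levels of different genes were compared per kilobase of exon, as normalised count per kb. In shControl the order was CLU at 1974 ± 27.8, STC1 at 331 ± 18.6, P2RY1 at 324 ± 15.8, LPL at 292 ± 5.70, PPP1R1B at 235 ± 1.18, AGR2 at 201 ± 2.14 and CYP4F22 at 46.8 ± 3.40. STC1 and P2RY1, neighbours in that order, differed by less than their spread, and the other neighbours differed by more. In knockdown the order was CLU at 3459 ± 36.9, STC1 at 1438 ± 40.3, LPL at 1209 ± 27.1, AGR2 at 661 ± 12.9, PPP1R1B at 598 ± 8.83, CYP4F22 at 359 ± 24.1 and P2RY1 at 85.6 ± 0.721. P2RY1 thus went from just below STC1 to the last place, and AGR2 stood above PPP1R1B in knockdown and below it in shControl. CLU was above 97.8% of the tested genes per kb in shControl and above 98.9% in knockdown, whereas CYP4F22 was above 42.5% and then 84.1%.

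The choice of the genes had not used the DU145 libraries, and there the set fell into 2 kinds. LPL, AGR2, CYP4F22 and PPP1R1B were almost without reads, and STC1, CLU and P2RY1 were well expressed. In DU145 all 3 expressed genes were past the threshold with overexpression, each in the direction opposite to its knockdown change. The background was high, since 43.5% of the 18705 genes tested in DU145 were past the threshold, 22.9% higher and 20.5% lower, and 55.3% had groups that did not overlap, 28.2% higher and 27.1% lower. With each library rescaled to its 75th percentile, the calls split into 3380 higher and 4737 lower against 4290 and 3842 without it, and the 3 genes kept their direction and call. Since RNA came from whole cultures, less RNA per cell and fewer expressing cells cannot be told apart here.

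CLU fell with GALNT7 overexpression. The OE control libraries read 10439, 9884 and 9846 and the overexpression libraries 6186, 6135 and 6927, with no overlap. The means were 10056 ± 332 and 6416 ± 443, a log2 change of -0.65 (SE 0.0567, 95% interval -0.78 to -0.52, adjusted p = 1.7e-04). In knockdown the same gene had a log2 change of 0.81, so CLU was higher with less GALNT7 in one line and lower with more GALNT7 in the other.

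STC1 also fell. It read 889, 886 and 936 in OE control and 622, 663 and 719 with overexpression, and the highest overexpression library lay below the lowest control. The means were 903 ± 28.3 and 668 ± 48.3, a log2 change of -0.44 (SE 0.0766, 95% interval -0.62 to -0.26, adjusted p = 0.0037). That is a smaller step than the 2.12 of knockdown, on a control level per kb of 218 ± 6.81 in DU145.

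P2RY1, the member that was lower in knockdown, rose with overexpression. Its control libraries read 358, 341 and 371 and its overexpression libraries 428, 465 and 481. All 3 overexpression libraries were above all 3 controls, with means of 356 ± 15.2 and 458 ± 27.4, a log2 change of 0.36 (SE 0.0857, 95% interval 0.16 to 0.56, adjusted p = 0.014). Leaving out any 1 library kept the direction and the call in CLU, STC1 and P2RY1, and the largest adjusted p over all alternatives was 0.0028, 0.017 and 0.048.

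The other 4 genes had next to no reads in DU145. LPL had 0 reads in the 3 OE control libraries and 1 in the 3 overexpression libraries. AGR2 had 2 and 2, CYP4F22 had 0 and 2, and PPP1R1B had 1 and 4, with at most 3 reads in any library. A count of 0 allows up to 3 reads in a library, or 0.123 to 0.139 RPM (reads scaled by the total of the library), and covers counting error only. These 4 genes did not reach the filter in DU145, so no change is given for them, and a response of LPL, AGR2, CYP4F22 or PPP1R1B to GALNT7 overexpression was not detectable at this depth. In CWR22Rv1 shControl the same genes had 6.28 ± 0.447 (CYP4F22) to 64.9 ± 1.35 (LPL) RPM. The 2 cell lines were scaled in separate tables, so this is a description of levels and not a test.

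**Figure D3:**
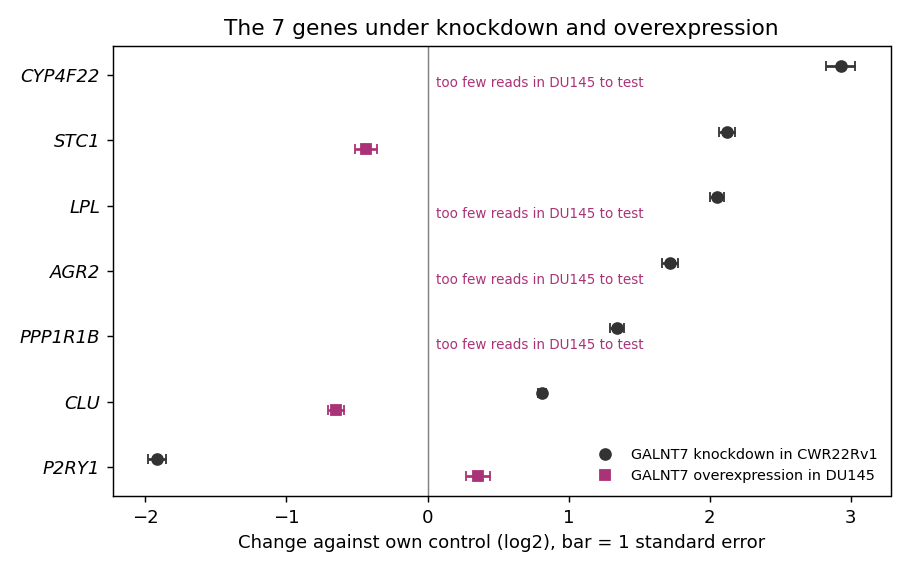
Log2 change of each of the 7 genes against its own control, with 1 standard error, for knockdown in CWR22Rv1 (circles) and overexpression in DU145 (squares). STC1 and CLU lie right of 0 in knockdown and left of 0 in overexpression, P2RY1 lies the other way round, and the other 4 genes have too few reads in DU145.

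Expression per kb of the 3 expressed genes kept 1 order in both DU145 groups. CLU stood at 1520 ± 50.2 in OE control and 970 ± 67.0 with overexpression, STC1 at 218 ± 6.81 and 161 ± 11.6, and P2RY1 at 52.8 ± 2.25 and 67.9 ± 4.06. In RPM, CLU was 663 ± 10.2 in shControl and 453 ± 14.2 in OE control, STC1 was 69.6 ± 3.97 and 40.7 ± 1.24, and P2RY1 was 111 ± 5.35 and 16.1 ± 0.654. As a ratio of the 2 control lines, the gap was widest for P2RY1 among the 3.

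The genes known to work with each member were examined next, from 7 lists of pathway partners. Against the 9.06% of all genes past the threshold in knockdown, the share was 28.6% for the LPL list, 10% for STC1, 40% for AGR2, 26.7% for CLU, 20% for CYP4F22, 4.17% for P2RY1 and 16.7% for PPP1R1B. Against the 43.5% of all genes in overexpression, it was 63.6%, 58.3%, 60%, 57.1%, 19.0%, 57.7% and 42.1% in the same order, so the PPP1R1B list was near the background there and the CYP4F22 list below it. No list was tested as a set. Around LPL, 21 genes of lipoprotein and lipid handling were tested in CWR22Rv1, and 3 rose and 3 fell, with a median log2 change of 0.078 against -0.0063 over all genes. ANGPTL4, a secreted inhibitor of lipoprotein lipase, rose from 941 ± 64.4 to 1461 ± 102, a log2 change of 0.63 (adjusted p = 0.0081). PNPLA2, the lipase that opens triglycerides inside the cell, fell from 532 ± 32.8 to 234 ± 32.7 (adjusted p = 0.0040). Only these 2 of the 6 calls held with each library left out in turn. Over all genes tested in knockdown, 259 higher and 162 lower calls held in this way, against 945 and 678 with all libraries. Such loss was thus common across all genes and not particular to the lists. In DU145, where LPL had 1 read, 5 of 22 rose and 9 fell, with a median of -0.13 against -0.011 over all genes. ANGPTL4 rose there from 88.2 ± 27.7 to 218 ± 31.3 (adjusted p = 0.0061), and PNPLA2 fell from 2752 to 1307 (adjusted p = 0.0015).

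Around STC1, 10 genes of calcium and phosphate handling were tested in CWR22Rv1, with 0 higher, 1 lower and a median of -0.13. The 1 that fell was ATP2B1, a calcium pump of the plasma membrane, from 4553 to 2361 (log2 -0.95, adjusted p = 0.0068). In DU145 4 of 12 rose and 3 fell, with a median of 0.059. ATP2B1 rose there by 0.38 (adjusted p = 0.0018), STC2, the paralogue of STC1, rose from 837 to 1358 (adjusted p = 0.0037), and IGFBP4, a binding protein of insulin-like growth factors, fell from 8637 to 3544 (adjusted p = 4.5e-06).

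Around AGR2, 20 protein disulphide isomerases and their oxidases and retrieval receptors were tested, and 8 rose and 0 fell in knockdown, with a median of 0.20. The calls that held with each library left out in turn numbered 5. They included the isomerases PDIA4, from 13107 to 20507 (log2 0.65, adjusted p = 4.4e-04), and PDIA6, from 8157 to 11055 (0.44, adjusted p = 0.0019), and the oxidase ERO1B, from 462 to 1306 (1.49, adjusted p = 0.0016). In DU145, where AGR2 had 4 reads in all, 8 of 20 rose and 4 fell with a median of 0.033. TXNDC5 rose from 4972 to 10325 (adjusted p = 9.8e-06) and PDIA6 from 10598 to 15348 (adjusted p = 4.4e-05), while ERO1B fell by 0.44 on the log2 scale (adjusted p = 0.0076).

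Around CLU, 15 receptors, complement regulators and chaperones were tested in knockdown, with 4 higher, 0 lower and a median of 0.14, but none of the 4 held with each library left out in turn. The apolipoprotein APOD was one, at 253 in shControl and 417 in knockdown, and its call was lost without shControl replicate 1 or 3 or knockdown replicate 1 or 2 (adjusted p of 0.050 to 0.076). In DU145, where CLU fell, 3 of 14 rose and 5 fell with a median of -0.14. The apolipoprotein APOE fell from 349 to 114 (adjusted p = 5.5e-05), VTN, which encodes vitronectin, fell from 337 to 36.3 (adjusted p = 0.0011), and CD46, a complement regulator, fell from 8905 to 5580 (adjusted p = 7.1e-05). LRP8, a receptor that binds clusterin, rose from 1725 to 2818 (adjusted p = 1.7e-04), and XRCC6, whose product Ku70 binds nuclear clusterin, rose from 6926 to 12648 (adjusted p = 1.0e-05).

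Around CYP4F22, 20 genes of the CYP4F family and of acylceramide synthesis were tested in knockdown, with 4 higher, 0 lower and a median of 0.083, and none held with each library left out in turn. CYP4F8, a relative that lies near CYP4F22, read 25.2 ± 18.4 in shControl and 164 ± 38.2 in knockdown, a log2 change of 2.88 (adjusted p = 0.019). The call was lost without shControl replicate 2 (adjusted p = 0.059) or without knockdown replicate 1, 2 or 3 (0.064, 0.051 and 0.055). In DU145 1 of 21 rose and 3 fell with a median of -0.045, and UGCG, which adds glucose to ceramide, fell from 11887 to 5370 (adjusted p = 2.9e-06).

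Around P2RY1, 24 purine receptors, ectonucleotidases and Gq effectors were tested in knockdown. The only one past the threshold was ITPR3, an inositol trisphosphate receptor, at 2826 and 3353 (adjusted p = 0.049), and its call was lost without any 1 library other than knockdown replicate 2 (adjusted p of 0.087 to 0.15). The median of the list was -0.078. In DU145 5 of 26 rose and 10 fell with a median of -0.17. The ATP-gated channel P2RX4 fell from 1051 to 519 (adjusted p = 0.0011), the ectonucleotidase ENTPD2 fell from 138 to 49.9 (adjusted p = 2.7e-04), ITPR3 fell by 0.50 on the log2 scale (adjusted p = 7.0e-05), and the phospholipase PLCB4 rose from 252 to 423 (adjusted p = 0.0036).

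Around PPP1R1B, 18 subunits of protein phosphatase 1, protein kinase A and calcineurin and related genes were tested in knockdown, with 2 higher, 1 lower and a median of 0.024. PRKACB, a catalytic subunit of protein kinase A, rose from 379 to 640 (log2 0.76, adjusted p = 0.0049) and held with each library left out. PPP1CC, a catalytic subunit of the phosphatase that DARPP-32 inhibits, read 7099 and 5988 (adjusted p = 0.022), and its call was lost without any 1 shControl library or without knockdown replicate 1 (adjusted p of 0.067 to 0.082). In DU145, where PPP1R1B had 5 reads in all, 7 of 19 rose and 1 fell with a median of 0.17. PPP1CC rose there from 4951 to 6947 (adjusted p = 1.2e-04), and PPP1R1A, a paralogue of PPP1R1B, fell from 29.7 to 7.33 (adjusted p = 0.0048).

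**Figure D4:**
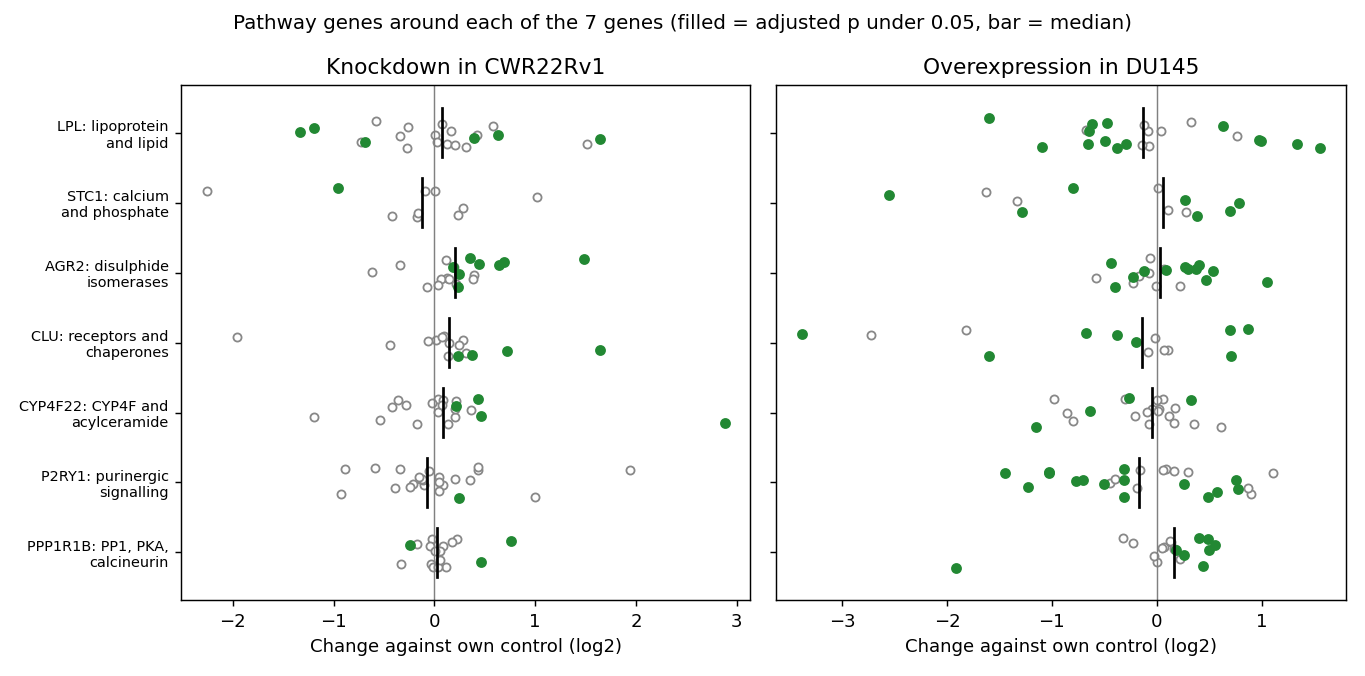
Log2 change of the pathway genes around each of the 7 genes, in knockdown (left) and overexpression (right); each circle is a gene, filled circles are past the threshold and bars are medians. Knockdown has its filled circles on the right in the disulphide isomerase row, 8 higher and 0 lower, and overexpression has many filled circles on both sides in most rows.

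The nearest tested genes on each side, 3 a side, were examined to see whether a member moved with its surroundings. In knockdown 7 of the 42 neighbours rose and 1 fell, with a median of 0.16, and in overexpression 11 rose and 11 fell. Over all tested genes 5.28% rose and 3.79% fell in knockdown, and 22.9% rose and 20.5% fell in overexpression, so calls in overexpression were common among all genes. The neighbours were not tested as a set. None of the 6 neighbours of LPL and none of the 6 of PPP1R1B was past the threshold in knockdown. STARD3, which lies 0.439 kb from PPP1R1B, read 537 ± 49.7 and 506 ± 44.4, and PNMT at 31.4 kb, with few counts, read 3.65 ± 0.965 and 10.9 ± 2.22 (adjusted p = 0.076). Beside AGR2, TSPAN13 lies at 7.28 kb and encodes a tetraspanin, and it rose in knockdown from 969 ± 17.0 to 1621 ± 91.6 (log2 0.74, adjusted p = 0.0023) and read 1061 and 1073 in DU145. Next to CYP4F22, PGLYRP2, a secreted amidase that cleaves peptidoglycan, lies at 9.54 kb and rose from 21.4 ± 9.85 to 130 ± 18.1 (log2 2.65, adjusted p = 0.010), while WIZ at 58.5 kb read 1328 and 1298. P2RY1 had 1 neighbour past the threshold in knockdown, the antisense RNA MBNL1-AS1 at 565 kb, at 168 ± 8.52 and 98.5 ± 20.0, and its call was lost without any 1 library other than knockdown replicate 3 (adjusted p of 0.085 to 0.12).

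STC1 had the most neighbours past the threshold in knockdown, 3 of 6. ADAM7 at 586 kb rose in knockdown from 201 to 481 (log2 1.25, adjusted p = 0.0014). The neurofilament gene NEFL read 245 ± 25.3 and 403 ± 43.9, and its call was lost without shControl replicate 2 or 3 (adjusted p = 0.060 and 0.067) or without knockdown replicate 1 (0.076). CLU had 1 neighbour past the threshold, CCDC25 at 118 kb, at 1739 and 2100, and that call was lost with any library left out (adjusted p of 0.052 to 0.10). Over the 7.71 Mb from LPL to CLU, 8 of 56 other tested genes rose in knockdown and 0 fell, or 14.3% against 9.06% of all genes, with a median of 0.149. In DU145 16 of 57 rose and 14 fell in the same stretch, or 52.6% against 43.5%, with a median of -0.158.

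**Figure D5:**
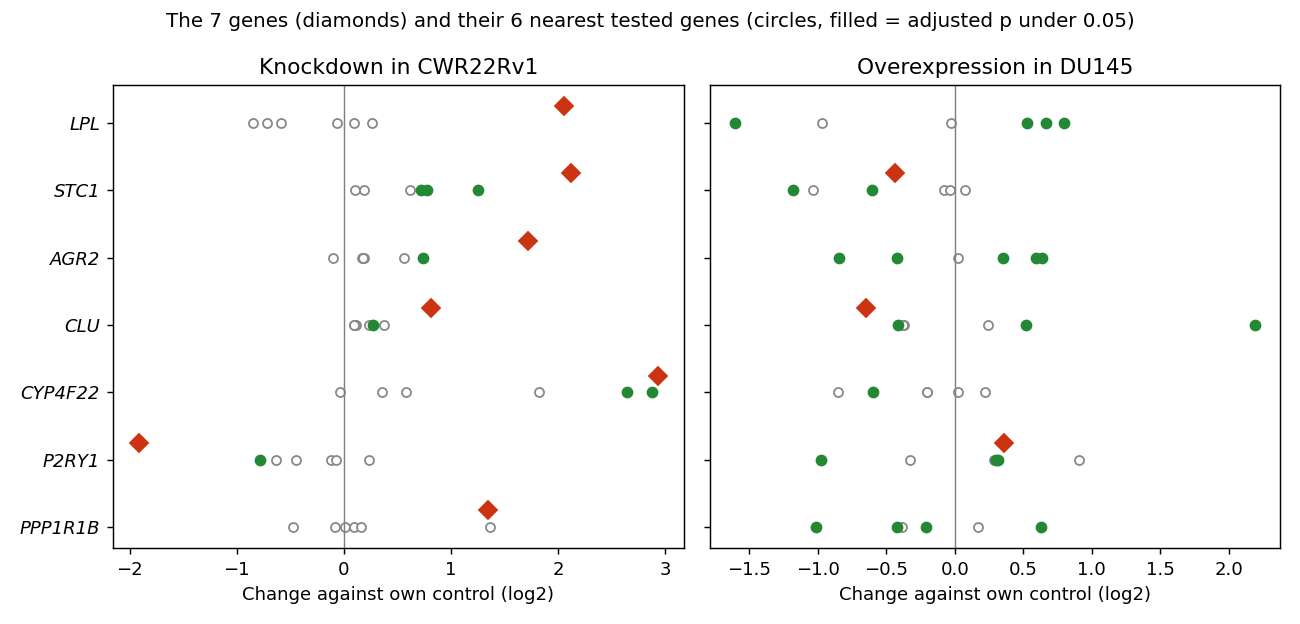
Log2 change of the 7 genes (diamonds, drawn slightly above their row) and of their 6 nearest tested genes (circles, filled when past the threshold), in knockdown (left) and overexpression (right). In knockdown LPL lies apart from its 6 open circles, PPP1R1B has 1 open circle near its own change and CYP4F22 has 2 filled ones; a diamond is missing where a gene had too few reads in DU145.

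Reads could in principle be shared with other genes. Of the 31-base words in the transcripts of LPL, AGR2, CYP4F22 and PPP1R1B, 0% occurred in another gene. The share was 0.121% for STC1, 0.134% for P2RY1 and 3.12% for CLU, and it was 6.80% for CYP4F8, which makes the count of that neighbour the less certain one.

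Genes with the pattern most like each member were found by Pearson's r over the 12 libraries, on log2 values centred within each cell line, among genes with a mean of at least 50 in CWR22Rv1. These libraries include the knockdown contrast that chose the members, so r is a description. CLU was closest to STARD10 with r = 0.988 and CLGN, an endoplasmic reticulum chaperone, with r = 0.982. STARD10 read 213 and 348 in knockdown and 1038 and 653 in overexpression, and CLGN read 612 and 1096, then 719 and 430, both higher in the first contrast and lower in the second. STC1 was closest to THBS1 with r = 0.990, which read 884 and 3556 in CWR22Rv1 and 5253 and 3576 in DU145. P2RY1 was closest to DAZAP2 with r = 0.987 and to DDAH1, an enzyme that breaks down methylarginines, with r = 0.985. DDAH1 read 483 and 155 in CWR22Rv1 and 1839 and 2587 in DU145. CYP4F22 was closest to the transcription factor MAF with r = 0.987, and MAF, at 533 and 1920 in CWR22Rv1, was likewise almost without reads in DU145, at 0 and 0.642. LPL was closest to PLTP, the phospholipid transfer protein, with r = 0.967, AGR2 to SPATA33 with r = 0.946 and PPP1R1B to PPME1 with r = 0.929.

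Among the members themselves the closest pair over the 12 libraries was STC1 and P2RY1, with r = -0.990, and the most distant was CLU and PPP1R1B, with r = 0.285. In LPL, AGR2, CYP4F22 and PPP1R1B the DU145 libraries add only the scatter of a few reads.

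Prostate markers moved along with the members in knockdown. KLK3, which encodes prostate-specific antigen, rose from 392 ± 46.3 to 808 ± 45.0 (log2 1.05, adjusted p = 0.0037), and the protease TMPRSS2 fell from 261 ± 41.7 to 90.6 ± 16.7 (log2 -1.52, adjusted p = 0.0074). In DU145 the 5 non-epithelial markers summed to 364 to 508 in OE control and 85.9 to 186 with overexpression. Only 3 of these 5 were tested, with 2 lower, and 2 had a mean below 3 in both groups, so few genes carry the sum. The 4 epithelial markers summed to 24152 to 25908 and 22524 to 24877, with EPCAM higher (log2 0.62, adjusted p = 0.0016) and CDH1 lower (log2 -0.58, adjusted p = 0.0092). Groups did not overlap in 32.5% of all genes tested in knockdown and 55.3% in overexpression, so separation alone was common. A sum also follows its most abundant genes. In knockdown the epithelial sums did not overlap, at 22416 to 22860 in shControl and 20827 to 21545 in knockdown. EPCAM had a log2 change of -0.71 (adjusted p = 0.013, and 0.054 without shControl replicate 1). KRT18 had a log2 change of -0.35 (adjusted p = 0.024), and its call was lost without any 1 shControl library or knockdown replicate 1 (adjusted p of 0.069 to 0.088). In CWR22Rv1 the 8 secretory markers, among them FOXA1 and SPDEF, summed to 6472 to 7107 in shControl and 5576 to 5961 in knockdown. The 6 neuroendocrine markers summed to 98.0 to 120 and 72.5 to 92.5, without overlap. Both sums rest on few genes, since only 3 of the 8 and 2 of the 6 reached the filter. In each list 3 markers had a mean below 3 in both groups. Of those tested, 2 secretory markers were lower, 0 with a replicate block, and 0 neuroendocrine markers were past the threshold. In DU145 the neuroendocrine sum was 15.3 to 25.8 in OE control and 34.6 to 48.1 with overexpression, again without overlap, and SYP, the only one of these 6 markers tested there, read 17.1 and 38.9 (log2 1.17, adjusted p = 0.017), with the call lost without overexpression replicate 2 (adjusted p = 0.060). The part of these shifts in the values of the 7 genes was not tested.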

How the data were processed

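RNA-seq libraries of CWR22Rv1 cells (shControl, GALNT7 knockdown) and DU145 cells (OE control, GALNT7 overexpression) were analysed, with 3 biological replicates a group. The authors deposited normalised counts, a signal made of reads divided by a size factor per library, in 1 table a cell line, and each table was scaled by itself. Their processing notes name hg38, Salmon, FastQC, DESeq2 and R 3.5.3 without saying how each was used. The library kit was stranded. Whole reads were recovered for 100% of values (tolerance 0.001 reads), with 18364512 to 24356910 reads a library. Names for 94.4% of identifiers, positions and exon lengths came from GENCODE 29.

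Changes were tested within each cell line with limma 3.58.1 in R 4.3.3 (eBayes with trend) on the log2 scale after adding 1 to each normalised count. Genes with a mean below 5 were not tested. The p-values were adjusted by Benjamini-Hochberg over all genes tested, and the threshold was 0.05. The fit was tested on simulated data. Fold changes are on that log2 scale and understate the change of low genes. Alternatives were pseudocounts of 0.5 and 5, no filter, a mean of at least 10, 75th percentile rescaling, quantile normalisation, a replicate block, eBayes without trend, leaving out each library, and edgeR 4.0.16 and DESeq2 1.42.0 on the recovered reads.

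The 7 genes and all lists were chosen with earlier results of these data known. Genes named beside them were, by rule, GALNT7, list genes past the threshold in both comparisons or with the 3 largest changes in each direction, the 3 nearest tested genes on each side, the 3 most alike genes, the 5 largest changes at a mean above 500 among other genes, and the marker genes. Only some of these are named. EPS8 was chosen after its values were seen. Some of the genes the rule selects are not reported here.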

Additional observations from a re-analysis of the deposited data

How the results depend on the processing

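In DU145, CLU, STC1 and P2RY1 kept their direction and their side of the threshold under all 16 alternatives, with log2 changes of -0.75 to -0.62, -0.54 to -0.39 and 0.26 to 0.41. In knockdown no member changed direction under any alternative, and 108 of 112 values moved by less than 1 SD between replicates. The count of genes past the threshold in knockdown was 1623. It became 1002 with a replicate block, 996 without the trend and 2642 with DESeq2 on recovered reads, and 539 to 1336 with a library left out: 555, 848 and 686 without shControl replicate 1, 2 and 3, and 539 and 1026 without knockdown replicate 1 and 2. Leaving out a library removes 1 residual degree of freedom. The other causes were not tested. In overexpression the count of 8132 stayed at 6757 to 8186 under every alternative, with 7405 under the block. The share of calls that were higher was 52.8% there and 41.6% with 75th percentile rescaling, which moved the median of all genes from -0.01 to -0.11 on the log2 scale. Deviations of same-numbered replicates had a small mean r, of 0.0193 in CWR22Rv1 and 0.0340 in DU145. Every sample matched its own number best for 1 of 3 numbers in CWR22Rv1 and 3 of 3 in DU145. The main fit did not take the numbers as pairs, although pairing in DU145 is not excluded. With the block, adjusted p was 0.0019 for CLU, 0.010 for STC1 and 0.034 for P2RY1 in DU145. Depth limits LPL, AGR2, CYP4F22 and PPP1R1B in DU145, which had no more than 3 reads in any library. Without the filter on low values their adjusted p-values over 31464 genes were 0.56, 1.00, 0.29 and 0.51. For the other named genes, 65 values in knockdown and 1 in overexpression lost the threshold, against 588 and 506 that kept call and direction. DAZAP2 in overexpression passed it with DESeq2 only, and PNMT in knockdown without the trend only (adjusted p = 0.033). Changes near 0 that missed the threshold turned sign. TSPAN13 in overexpression was 0.02, and became -0.079 with 75th percentile rescaling, -0.074 with quantile normalisation and -0.061 to 0.096 with a library left out. WIZ in knockdown was -0.04 and ranged from -0.13 to 0.053 with a library left out.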
